A study of Mus musculus with 9 samples.

Results

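The regions described here are sites of open chromatin that were called in fibroblasts that had not been transfected, both wild-type (WT) and Anp32e null, and in neither list from siRNA-transfected Anp32e null fibroblasts. Peaks of the 4 deposited ATAC-Seq lists were merged wherever they overlapped or touched on chromosomes 1 to 19, which gave 125387 sites. Of these, 64502 had a peak from WT and from untransfected null cells, and 2834 of the 64502, or 4.39%, had no peak from either siRNA list. These 2834 members were thus selected on the presence and absence of peaks in the same 4 lists, so peak strength is given for them as a description and supports nothing about why they were absent. The share depends on which peaks enter, and was 2.83% with peaks of a −log10 q of 5 or more, 7.63% with equal numbers of peaks per list and 13.8% with the top 20000 peaks of each.

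All cells were primary mouse embryonic fibroblasts (MEFs) from WT or Anp32e null embryos, kept below passage 8. Untransfected WT and Anp32e null MEFs had 3 libraries each. A non-targeting (NT) siRNA pool had been delivered with Lipofectamine RNAiMAX to Anp32e null MEFs for 1 library. A pool of siRNAs against the histone variant H2A.Z had been delivered likewise to Anp32e null MEFs for 2 libraries. The study had set aside another replicate of the H2A.Z knockdown experiment as over-tagmented, without saying which siRNA it had received. Null, NT siRNA and H2A.Z siRNA cells therefore share the Anp32e deletion, whereas WT and null cells share the lack of transfection. The labels name 1 peak list for all libraries of a group, so each group was 1 list without replicates, no test between lists was possible, and intervals below are 95% intervals of counting error only. Transfection coincides with the split that defines the members, so its part and that of any other difference between the transfected and untransfected samples cannot be told apart. The deposited lists of the 2 kinds also differ in filtering, as described below. In such bulk data, a smaller number of cells with an open site and a lesser opening in each cell cannot be told apart either.

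In ATAC-Seq, the Tn5 transposase cuts accessible DNA and inserts sequencing adapters, so that promoters, enhancers and insulators appear as peaks of fragments. H2A.Z is a variant of histone H2A that is placed at promoters and enhancers by the SRCAP and p400 remodelers, and ANP32E is a chaperone that takes H2A.Z out of nucleosomes. Fibroblast enhancers typically carry binding sequences of AP-1, TEAD and RUNX factors, whereas active promoters are rich in CpG dinucleotides and in SP1, ETS and NF-Y sequences. Promoters of all 10 fibroblast markers examined, among them Col1a1, Pdgfra, Twist1 and Vim, held a peak in every list. Of markers of other cell types, peaks lay at 4, 4, 6 and 6 of 6 epithelial genes in WT, null, NT siRNA and H2A.Z siRNA, at 2, 2, 2 and 3 of 6 immune genes, and at 1, 2, 1 and 1 of 3 muscle genes. For endothelial genes the numbers were 4, 3, 4 and 4 of 5, and for neural genes 3, 4, 4 and 4 of 5. No member lay at the promoter of any of these 35 genes, and the part of cell mixture in the class was not tested.

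To show what such sites look like in sequence, the null summit and 100 bp on either side are given for the 3 strongest members at protein-coding promoters and the 3 strongest distal members, members beside a filtered stretch (described below) and windows touching an untranslated region being passed over. Bases are from GRCm38.p6, the assembly of mm10, on the plus strand. Capitals mark any of the letter sets searched below on either strand, apart from the general E-box, which most windows hold.

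The first promoter window, chr10:58225301-58225501, lies 471 bp from the start of AW822073, outside annotated genes. Capitals mark the TEAD, NF-Y and STAT letters.
AW822073 upstream window: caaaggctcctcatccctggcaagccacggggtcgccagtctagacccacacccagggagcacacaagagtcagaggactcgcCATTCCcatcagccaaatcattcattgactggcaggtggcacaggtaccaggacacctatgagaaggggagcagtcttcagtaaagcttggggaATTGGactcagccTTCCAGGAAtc

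The second, chr14:111674719-111674919, lies 278 bp from the start of Slitrk5, which encodes a neuronal transmembrane protein. It held no letters of any set beyond the E-box, and 62.7% of its bases were G or C.
Slitrk5 upstream window: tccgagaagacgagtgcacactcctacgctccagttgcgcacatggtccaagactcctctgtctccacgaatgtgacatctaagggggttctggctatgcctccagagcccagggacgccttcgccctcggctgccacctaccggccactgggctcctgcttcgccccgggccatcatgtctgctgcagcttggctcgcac

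The third, chr10:58231253-58231453, lies in an exon of Duxf3, a double homeobox gene that is repeated in tandem in the mouse genome. Capitals mark the NF-Y letters.
Duxf3 exon window: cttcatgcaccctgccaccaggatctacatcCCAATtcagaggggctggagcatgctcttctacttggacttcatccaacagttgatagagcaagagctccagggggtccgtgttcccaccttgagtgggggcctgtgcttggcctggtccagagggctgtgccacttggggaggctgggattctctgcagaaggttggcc

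Among distal members, chr1:144600857-144601057 is intergenic and 49.4 kb from the start of Rgs21. Capitals mark NF-Y letters and an AP-1 sequence towards its right end.
Intergenic window nearest Rgs21: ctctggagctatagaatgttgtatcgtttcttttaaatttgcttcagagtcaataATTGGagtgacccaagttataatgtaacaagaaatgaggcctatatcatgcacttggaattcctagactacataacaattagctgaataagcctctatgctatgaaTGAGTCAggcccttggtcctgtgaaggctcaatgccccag

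The window chr13:106562748-106562948 is intergenic and 362 kb from the nearest protein-coding start, that of Ipo11. Its capitals mark the NF-Y letters in both orientations, and 37.3% of its bases were G or C.
Intergenic window nearest Ipo11: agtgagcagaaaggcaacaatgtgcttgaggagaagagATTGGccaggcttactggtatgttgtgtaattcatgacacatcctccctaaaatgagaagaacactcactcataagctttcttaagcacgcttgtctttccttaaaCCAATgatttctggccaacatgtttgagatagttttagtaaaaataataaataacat

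The window chr17:52560066-52560266 is intergenic and 42.5 kb from the start of Kcnh8. Capitals mark a CTCF core followed by the RUNX letters.
Intergenic window nearest Kcnh8: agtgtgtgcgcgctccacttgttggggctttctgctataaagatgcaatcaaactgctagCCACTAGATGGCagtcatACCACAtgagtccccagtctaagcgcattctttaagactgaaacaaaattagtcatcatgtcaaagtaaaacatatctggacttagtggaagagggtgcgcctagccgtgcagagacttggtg

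To place the members among the other sites, the strength of their peaks was examined first. Each peak has a fold enrichment at its summit, the authors' ratio of fragments to local background, and a percentile of that fold within its list. From the fold and the p-value, the number of fragments at the summit was recovered as a whole number and divided by the genome-wide background of the list, which scales with depth. That background was 8.85 fragments for WT and 5.12 for null, compared with 3.88 for the NT siRNA list and 17.8 for the H2A.Z siRNA list, so the siRNA lists were the shallowest and the deepest of the 4. Lists held 81848, 80433, 87116 and 105816 peaks on chromosomes 1 to 19, respectively.

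Members were weak and narrow. Their median fold percentile was 33.3 in WT (32.1 to 34.6) and 21.5 in null (21.5 to 23.2), compared with 63.3 in both lists for the 57522 sites called in all 4 lists. Median summits held 34 fragments in WT and 22 in null, as against 67 and 59 at the sites of all 4 lists. Median width in null was 339 bp (333 to 347), compared with 685 bp. Among the top 20000 peaks of each list it was 951 bp at members and 949 bp at the others. Sites that only 1 siRNA list also held were weak and narrow as well. With H2A.Z siRNA alone, median percentiles were 34.6 in WT (33.9 to 35.7) and 29.9 in null, with a null width of 389 bp. With NT siRNA alone they were 40.3 in WT and 30.7 in null, with a null width of 370 bp. Median width in WT was 422 bp at members and 421 bp at sites of H2A.Z siRNA alone. A member's null and WT summits lay a median of 58 bp apart, against 40 bp at the sites of all 4 lists, and 2810 of the 2834 members consisted of 1 peak from each list. In 72.4% of members both percentiles were under 50, and in 191 members both were over 50.

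The share of sites that were members fell with each step up in null fold until the top of the list. In the weakest decile of the 64502 sites, 1102 of 6451, or 17.1%, were members (16.2 to 18%). In the next deciles the share was 11.6%, 7.05%, 4.05%, 2.08%, 0.992%, 0.388% and 0.357%. It was 0.0775% in the ninth decile and 0.279% in the strongest, where 18 of 6450 sites were members. All 18 members of the strongest decile lay in stretches of the kind described next.

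**Figure D1:**
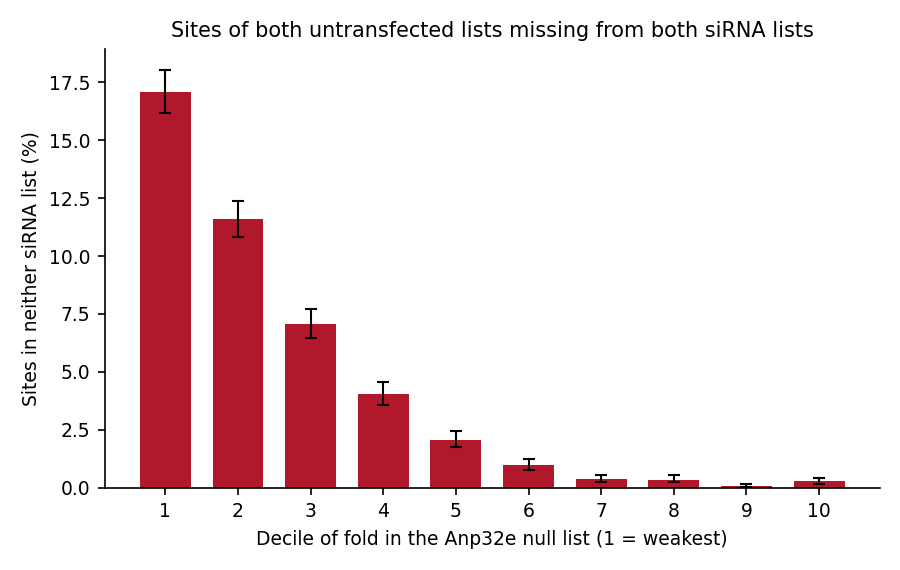
Percentage of sites called in both WT and null that were in neither siRNA list (vertical axis), by decile of fold in the null list from weakest to strongest (horizontal axis). Bars are shares and lines are 95% Wilson intervals. The share falls from 17.1% in the weakest decile to 0.0775% in the ninth and stands at 0.279% in the strongest.

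The strongest members coincided with stretches from which peaks had been taken out of the siRNA lists before deposition. Peaks in a list carry running numbers, and 74 numbers were absent from the NT siRNA list and 79 from the H2A.Z siRNA list, of which 29 and 33 fell between deposited peaks of chromosomes 1 to 19. According to the methods of the study, peaks on the mitochondrial genome and in blacklisted regions had been removed for downstream analysis. No number was absent from the WT and null lists, which still held 5 and 6 mitochondrial peaks, whereas the siRNA lists held none, so the deposited untransfected lists did not carry this filter and the siRNA lists did for mitochondrial peaks at least. In all, 54 members (1.91%) lay in a stretch beside an absent number in at least 1 siRNA list, and 48 of them in both. They included every one of the 20 highest-ranked members, 23 of the 28 with both percentiles over 80 and 33 of the 191 with both over 50. Whether a given member was among the removed peaks cannot be read from the lists. Without the 54, 2780 members remained, and their medians differed from those of the whole class by less than the counting intervals.

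At Gm10800, which had the most fragments of the members named here but ranked below the first 10, chr2:98666250-98667319, the summit held 5614 fragments in WT and 4223 in null, 635 and 825 times the background. An intergenic site, chr3:5860350-5860823, held 1410 and 867 fragments. A site within Cmss1 and Filip1l introns, chr16:57391182-57391691, held 1207 and 766. These 3 sites were high in both lists, and each lay beside an absent number in the siRNA lists.

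The other leading sites of the group were alike. An intergenic site 88.8 kb from Axin2, chr11:109011642-109012102, held 983 fragments in WT and 613 in null. A site in an intron of Cdk8, chr5:146260985-146261363, held 907 and 524. A site in the non-coding gene Gm33838, chr9:35305219-35305589, held 872 and 644, and had an NT siRNA peak at 812 bp and an H2A.Z siRNA peak at 820 bp. The log2 ratio of null over WT enrichment at these sites was 0.11, −0.0017 and 0.35, respectively.

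The first 10 members by rank were the chr3 and chr16 sites, the 3 sites just described and 5 more. A site in an intron of Zc3h7a, chr16:11143915-11144305, held 838 in WT and 504 in null, and its summit lay 10 bp from the start of the annotated miRNA gene Gm23935. An intergenic site, chr6:3201053-3201566, held 481 and 296. A site in an intron of Camk1d, chr2:5379044-5379383, held 434 and 281. The site at Gm10718, chr9:3022472-3025764, was 3293 bp long with 336 and 236 fragments, and an intergenic site on chromosome 18 held 318 and 186. All of the first 10 lay beside an absent number.

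**Figure D2:**
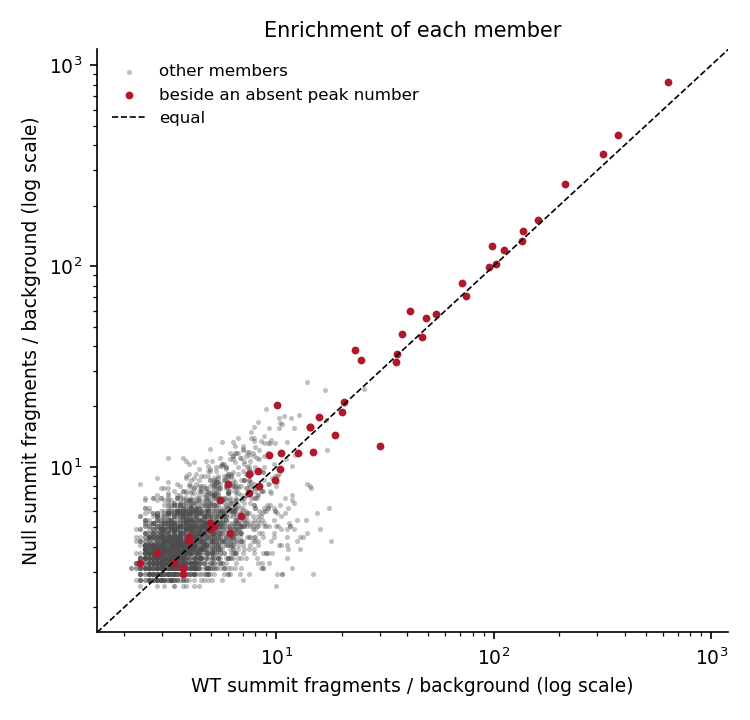
Summit fragments over genome-wide background in WT (horizontal, log scale) and null (vertical, log scale) for each of the 2834 members. Red points are the 54 members beside an absent running peak number and grey points the others, the dashed line marks equality, and the red points reach 635 in WT and 825 in null at Gm10800, while the bulk of members lies below 10 in both lists.

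At protein-coding promoters, meaning that the site reached within 1 kb of a transcription start site (TSS) of a protein-coding transcript, there were 264 members, and 422 at starts of any annotated transcript. Of the 12 highest-ranked, 7 lay beside absent numbers, namely Gm10718, Gm10800, 3110070M22Rik, Gm10722, Gm21738, Elobl and Gm10717. The other 5 were AW822073, Slitrk5, Pde1c, Duxf3 and Chrna7.

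Slitrk5, chr14:111674544-111674925, had a fold of 5.58 in WT with 91 fragments and of 7.65 in null with 47 fragments, and the nearest peak of either siRNA list lay about 2460 kb away. Chrna7 encodes the alpha7 subunit of the nicotinic acetylcholine receptor. Its site, chr7:63212212-63212887, had a fold of 4.57 with 44 fragments in WT and 5.72 with 34 fragments in null, its summit lay in an exon 35 bp from the start, and the nearest siRNA peak was 450 kb away. Pde1c encodes a calmodulin-dependent phosphodiesterase. Its site, chr6:56568258-56569273, had a fold of 6.8 with 73 fragments in WT and 6.87 with 41 in null, with the nearest NT siRNA and H2A.Z siRNA peaks at 82.9 and 122 kb. At these 3 promoters, peaks of middling rank in both untransfected lists thus stood in stretches with no siRNA peak nearby.

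The Dux region on chromosome 10 held AW822073, at chr10:58225210-58225621, and Duxf3, at chr10:58231182-58232207. The former had a fold of 11.1 with 224 fragments in WT and 10.3 with 125 in null, and the latter 6.14 with 108 and 6 with 59. Neither lay beside an absent number. Because Dux genes are tandem copies, reads may be shared between copies and these values are uncertain.

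Distal members, with no TSS within 1 kb, numbered 2412. The first 6 by rank were among the first 10 members. The first 6 away from absent numbers were chosen after these had been seen. The intergenic site near Rgs21, chr1:144600633-144601072, had a fold of 9.34 in WT and 11.7 in null, with 91 and 80 fragments. The site near Ipo11, chr13:106562310-106563214, had a fold of 12.5 and 10.3, with 152 and 62 fragments. The site near Kcnh8, which encodes a potassium channel, chr17:52559989-52560329, had a fold of 7.62 and 10.3, with 74 and 62 fragments.

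The next 3 were of like strength. A site in an intron of Ctnna3, which encodes an alpha-catenin, chr10:63616659-63617154, had a fold of 8.02 in WT and 9.58 in null. A site 4.43 kb from the olfactory receptor gene Olfr1318, chr2:112149725-112150195, had 7.41 and 9.48. A site in an intron of the serine protease gene Tmprss11f, chr5:86630614-86631029, had 7.31 and 10.6, and its nearest siRNA peak was 173 kb away. All 6 were strong in both lists, with fold percentiles of 79 to 96.3 in WT and 80 to 88.9 in null.

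Members were next compared between the genotypes, on the log2 ratio of null over WT enrichment. Enrichment over background was higher in null at 66.7% of members (65 to 68.4%), with a median log2 ratio of 0.18 (0.16 to 0.20). At the sites of all 4 lists it was higher in null at 91.4%, with a median of 0.62 (0.62 to 0.62), at the 3473 sites that the H2A.Z siRNA list alone also held 0.37 (0.35 to 0.39), and at the 673 sites that the NT siRNA list alone also held 0.28 (0.23 to 0.33). Because the median over all 64502 sites was 0.59, the direction depends on the scale. With that median set to 0, the members' median was −0.41, and with the strongest 1000 sites set to 0 it was −0.65. Among the top 20000 peaks of each list the members' median was 0.63 (0.62 to 0.65) and that of the others 0.71 (0.71 to 0.72). On each of the 19 chromosomes the members' median was below that of the other sites.

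Since members were weak, the ratio was also compared at like strength. Among the 64502 sites in quartiles of mean enrichment of WT and null, the members' median ratio was 0.19, 0.07, 0.40 and 0.11 from the weakest to the strongest quartile, on 2172, 525, 106 and 31 members. That of the other sites was 0.42, 0.56, 0.63 and 0.72. Intervals of members and others did not overlap in any quartile, the closest being 0.26 to 0.53 and 0.62 to 0.64 in the third. How many of the 31 members of the strongest quartile lay beside an absent peak number was not counted. All 18 members of the strongest decile of null fold lay beside one, so that quartile says little about the other members. Members lacked a peak in both lists from transfected Anp32e null cells, whereas the others had one in at least 1, and the part of that selection in the ratio was not tested.

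**Figure D3:**
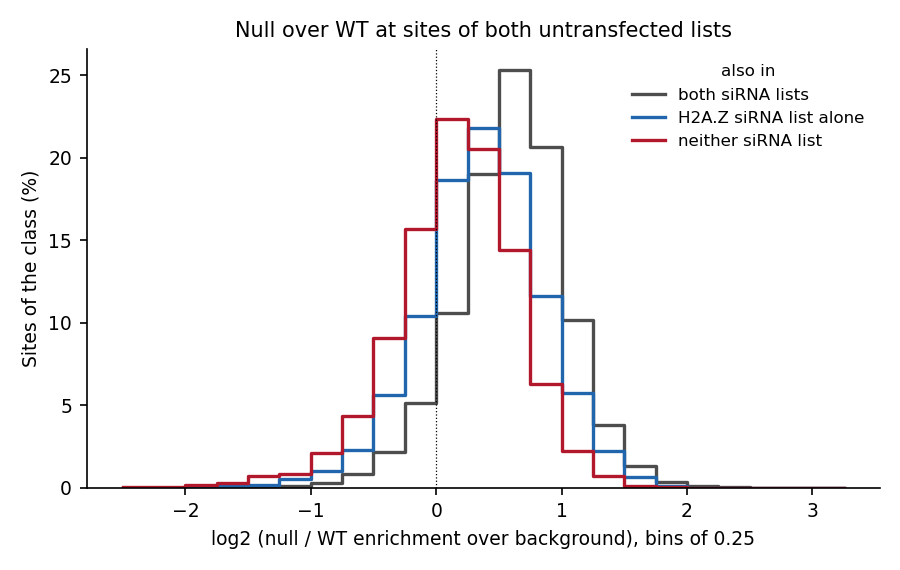
Distribution of the log2 ratio of null over WT enrichment (horizontal, bins of 0.25) as a percentage of the sites of each class (vertical). The members (red) have a median of 0.18, sites also in the H2A.Z siRNA list alone (blue) 0.37 and sites in both siRNA lists (grey) 0.62.

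Single members departed from this in either direction. Among members above the median rank, the lowest ratio was −2.05 at an intergenic site on chromosome 2, chr2:57856490-57857271, with 158 fragments in WT and 22 in null. Next came −1.72 at chr1:105184342-105185031 with 114 and 20 fragments, and −1.7 at chr10:125503239-125503900 with 140 and 25. The highest was 1.82 at chr3:157739547-157739939, with 28 and 57 fragments, followed by 1.48 at chr16:65986993-65987556, which lay 476 bp from an NT siRNA peak, and 1.41 at chr12:60413936-60414486. All 6 were intergenic, and they lay 114 kb or more from a protein-coding start.

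For a description of the members' strength on the scale of the siRNA lists, the enrichment of each was multiplied by the background of those lists. Members had been chosen for passing in both untransfected lists, which raises these values, so they do not bear on why members were absent. At the null enrichment, 2745 of 2834 members (96.9%, 96.2 to 97.4%) would score above the lowest −log10 p in the NT siRNA list, which was 2.98. At the WT enrichment 2439 (86.1%) would, and by both 2377 (83.9%). For the H2A.Z siRNA list, all 2834 would score above its lowest value of 2.82 from either list. Expected summits had a median of 16.7 fragments at the NT siRNA depth and 76.6 at the H2A.Z siRNA depth from the null enrichment, whereas the lowest summit called at genome-wide background was 11 and 32, respectively. In these lists the lowest enrichment called at background was 2.83 (NT siRNA) and 1.8 (H2A.Z siRNA), while the members' median was 3.84 in WT and 4.3 in null. In width, 2673 members were at least as wide in null as the narrowest NT siRNA peak (227 bp), and 2373 as the narrowest H2A.Z siRNA peak (249 bp).

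By the rule, no member overlapped an siRNA peak, so distances to the nearest one are given as a description, without a comparison to other sites. The nearest NT siRNA peak was a median of 15.4 kb away (quartiles 5.27 and 51.7 kb) and the nearest H2A.Z siRNA peak 13.4 kb (4.51 and 42.4 kb). In all, 176 members (6.21%) lay within 1 kb of an NT siRNA peak, and 214 (7.55%) within 1 kb of an H2A.Z siRNA peak.

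At the edge of the rule, the 5 members of lowest −log10 q were tied at 1.35 in null, each with a null fold of 2.29, and had 2.09 to 41.9 in WT. In 118 members (4.16%) the lower of both −log10 q was under 2. Just outside stood sites kept out by a faint siRNA peak, such as chr5:17002976-17003601, with a −log10 q of 4.76 in WT, 8.28 in null and 1.46 in NT siRNA. Among excluded sites, 16 had an siRNA −log10 q under 2.

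What the members share that the rule did not use was examined in their position and sequence. Relative to genes, members were distal. They lay at a TSS in 14.9% of cases (13.6 to 16.2%), compared with 28.7% of all sites in both untransfected lists, and the median distance to a protein-coding TSS was 42.6 kb (38.4 to 45.3), compared with 17.7 kb at the sites that an siRNA list also held. Exons held 9.1% of members and 16.8% of the other sites, and 43.9% of members were intergenic against 37.7%. The share over 50 kb from a protein-coding TSS was 45.3% against 27.7%. Of the sites that the H2A.Z siRNA list alone also held, 5.7% lay in exons, 43.3% were intergenic and 39.9% lay over 50 kb away.

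Because members were weak, they were also compared within the lowest quartile of null fold among the 64502 sites, which held 2161 members (76.3%) and 14495 others. Here the promoter share was 15.3% (13.8 to 16.9%) against 19.9% (19.2 to 20.5%), and the distance 37.7 kb (34 to 42.4) against 17.8 kb (17.2 to 18.3). Sites that only 1 siRNA list also held had promoter shares below the 21.4% of sites of both siRNA lists as well, with 12.5% (11.1 to 13.9%) for H2A.Z siRNA alone and 15.7% (12.6 to 19.4%) for NT siRNA alone. Their distances were 26.8 kb (24.7 to 29.1) and 34.9 kb (29.3 to 43.5), respectively. The order turned with the GC content of the surrounding 20 kb. From the lowest to the highest of 5 GC classes, the promoter share of members was 13%, 16.2%, 15.3%, 16.1% and 21%, and that of the others 8.35%, 12.7%, 13.5%, 18.3% and 33.9%, so that members were higher in 3 of 5. With the top 20000 peaks of each list, the promoter share was 39.4% (37.4 to 41.4%) at members and 48.4% (47.6 to 49.3%) at the others. At protein-coding promoters of this quartile, the 204 members and 1762 other sites had the same median of 8 CpG within 100 bp of the summit, and 58.5% and 58.7% G and C.

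The surroundings of the members were examined next. The measures, the GC content of 20 kb around the summit, protein-coding genes within 500 kb and other sites of both untransfected lists within 100 kb, were chosen after the class had been examined. Within the lowest quartile of null fold, median GC content of the 20 kb was 42.8% at members (42.6 to 43.0%) and 45.9% at the others (45.8 to 46.0%). Members had a median of 6 protein-coding genes within 500 kb, compared with 10, and 6 other sites within 100 kb (5 to 6), compared with 10. Sites of a single siRNA list lay nearer to the members than to the sites of both siRNA lists in GC content, with 43.7% in either class against 46.4%, and in genes, with 7 (H2A.Z siRNA alone) and 6 (NT siRNA alone) against 11. They had 9 and 7 other sites within 100 kb, respectively.

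Going from the lowest to the highest of 5 classes of 20 kb GC content, 28.3%, 18%, 13.4%, 9.27% and 3.49% of weak sites were members. The classes were of near equal size over all 64502 sites, not over the weak sites. With equal numbers of peaks per list the lowest and highest class stood at 40.5% and 12.7%, and with a −log10 q of 5 or more at 20.6% and 1.44%. The classes ran from 33.1 to 41.3% GC at one end and from 48.4 to 59.2% at the other. Over all 64502 sites the shares were 8.41%, 5.47%, 3.91%, 2.85% and 1.32%. The mirror class, sites of both siRNA lists that neither untransfected list held, went the other way, with 11.7%, 11.8%, 12.9%, 14.9% and 18.7% of the sites of both siRNA lists from the lowest to the highest class. Base composition thus moved with the split between untransfected and siRNA lists in both directions, and its part in the absence of members was not tested.

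Isolated sites were most often members. Of 257 weak sites with no other site within 100 kb, 163 (63.4%, 57.4 to 69.1%) were members. The share was 32.2% with 1 to 4 other sites, 14% with 5 to 9 and 5.74% (5.27 to 6.25%) with 10 or more. With equal numbers of peaks the first and last of these were 71.2% and 17.8%, and with a −log10 q of 5 or more 49.8% and 2.61%. The gradient was present within each class of GC content. In the lowest it ran from 65.3% with no neighbour (96 members) to 11.5% of 565 sites with 10 or more, and in the highest from 57.1% of 21 sites to 1.85% of 3193.

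**Figure D4:**
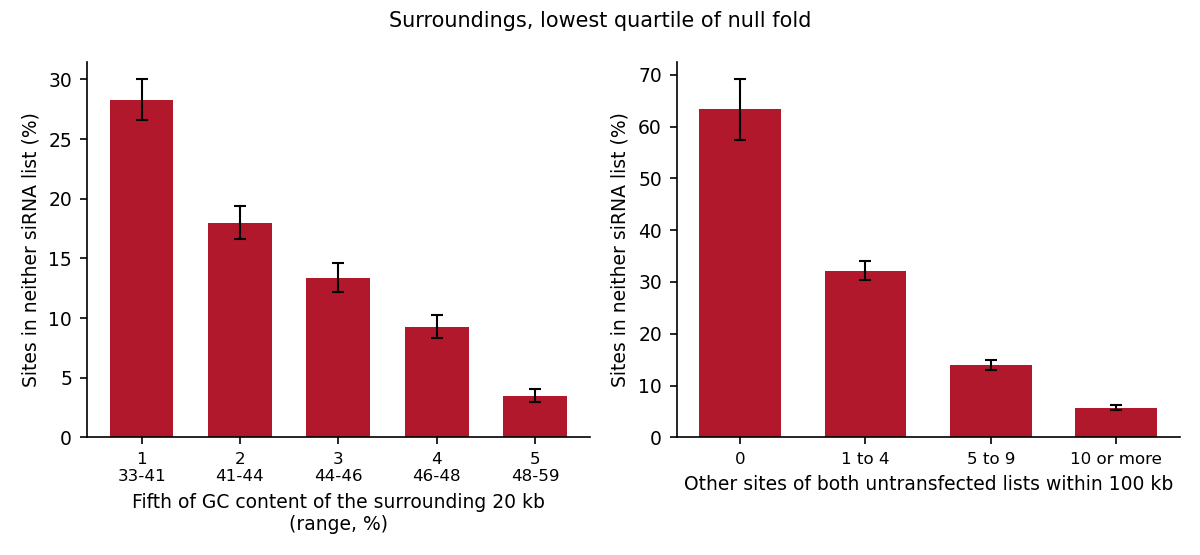
Percentage of weak sites (lowest quartile of null fold) of both untransfected lists that were in neither siRNA list (vertical). The left panel is by GC content of the surrounding 20 kb, in 5 classes of near equal size over all 64502 sites. The right panel is by the number of other sites of both untransfected lists within 100 kb. Bars are shares and lines 95% Wilson intervals, and the shares fall from 28.3 to 3.49% and from 63.4 to 5.74%.

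Along the genome, the share of members ranged from 1.79% of 1896 sites on chromosome 19 (1.29 to 2.49%) and 2.65% on chromosome 11 to 5.57% on chromosome 10 and 5.75% of 2747 on chromosome 12 (4.94 to 6.69%). In windows of 5 Mb with 50 or more sites, of which there were 432, the median share was 3.64%, 28 windows had no member and 49 had over 10%. The highest was 32 of 119 sites (26.9%, 19.7 to 35.5%) between 115 and 120 Mb on chromosome 13, where 6 of the 32 lay beside an absent number. It was followed by 20 of 88 (22.7%) between 55 and 60 Mb on chromosome 12 and 17 of 89 (19.1%) between 75 and 80 Mb on chromosome 16. Within 10 kb of another member lay 341 members (12%).

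The genes that held most members, a ranking that favours long genes with many sites, are given beside the 4.39% over all sites. Etl4 held 10 of its 26 sites (38.5%), counting the gene body and 10 kb on either side. Lsamp, an adhesion molecule of neurons, held 8 of 14, Sgcd, a sarcoglycan of the muscle membrane, 7 of 17, and Schip1 7 of 23. Iqschfp, a read-through gene over Schip1, tied with 7. The intervals of these shares were wide, such as 32.6 to 78.6% for Lsamp. Genes with 4 or more members numbered 42, and some had shares near the overall one, such as Fgfr2 with 6 of 142 (4.23%).

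Gene lists were then examined by the share of their sites, within 10 kb of the gene body, that were members, beside the 4.39% over all sites. These shares are over sites of any strength. They were not matched for null fold, with which the share of members changes. Collagen and matrix genes had 3 of 168 sites (1.79%, 0.609 to 5.12%), at Fbn2 and Col8a1, mesenchymal transcription factors 5 of 288 (1.74%, 0.744 to 4%), at Nfia and Tcf4, and actin and contractile genes 0 of 152, which allows up to 2.46%. TEAD, YAP and Hippo genes had 2 of 130 (0.423 to 5.44%), at Stk4 and Vgll3, and Wnt pathway genes 3 of 169 (0.606 to 5.09%), at Axin2, Dkk1 and Dkk2. AP-1 subunits had 2 of 57 (0.968 to 11.9%), at Atf2 and Maf. The intervals of the contractile and mesenchymal genes ended below 4.39%, and those of the other 4 lists contained it.

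TGF-beta and BMP genes, among them genes for ligands, receptors and SMADs, had 10 of 198 sites (5.05%, 2.77 to 9.05%). Of these, 4 lay at Bmpr1b, which encodes a BMP type I receptor, 2 at Acvr1 and 1 each at Acvr2a, Bmp2, Tgfbr3 and Ccn2. The highest-ranked, in an intron of Acvr1, chr2:58449084-58449518, had a fold of 4.98 in WT and 6.05 in null. The site at the Bmpr1b start, chr3:141931392-141931727, had a fold of 3.56 with 34 fragments in WT and 3.92 with 23 in null. Neural lineage factors had the highest share of the 16 lists, 6 of 78 (7.69%, 3.57 to 15.8%), among them sites at Lhx9, Nkx2-2, Nkx6-1 and Otx2. The site at the start of Otx2, a homeobox gene of the forebrain, chr14:48664867-48665469, had a fold of 2.84 with 27 fragments in WT and 4.25 with 25 in null. Both of these intervals contain 4.39%.

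DNA replication and cell cycle genes had 1 of 135 sites (0.741%, 0.131 to 4.08%), at Rb1, and cytosolic ribosomal protein genes 2 of 151 (1.32%, 0.364 to 4.7%), at Rps10 and Rpl22. The Rb1 site, chr14:73324699-73324994, had a fold of 2.58 with 47 fragments in WT and 2.99 with 36 in null, and lay 225 bp from an NT siRNA peak. The Rps10 site, chr17:27636312-27636682, had 2.23 with 27 fragments and 2.57 with 21, and lay 533 bp from one. Both thus lay close to a peak that the NT siRNA list did hold. Adipogenic regulators had 3 of 100, at Pdgfra, Ppargc1a and Zfp423. No member fell to Hox genes (55 sites), interferon response genes (81), NF-kB and cytokine genes (85), p53 and cell cycle inhibitors (80) or genes for H2A.Z and its deposition (59), and the upper Wilson bounds of these shares were 4.32 to 6.53%.

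Last, the sequence within 100 bp of the null summit was searched for 19 sets of letters on both strands, all of which are reported. Those with more than a few percent of windows were AP-1 (TGANTCA), TEAD (GGAATG), RUNX (TGTGGT), SP1 (GGGCGG), NF-Y (CCAAT), SOX (ACAAAG), NFI (TTGGCA), C/EBP (TTGCNNAA), the steroid receptor (ACANNNTGT), the nuclear receptor (AGGTCA), STAT (TTCNNNGAA) and the E-box (CANNTG) with its form CAGCTG. The others were CRE (TGACGTCA), ETS (CCGGAAG), homeobox (TAATTA), forkhead (TGTTTAC), the CTCF core and the SRF CArG box. Some sets overlap in letters, since CAGCTG is also an E-box.

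AP-1 letters were less frequent in members, at 23.6% (22.0 to 25.2%), than in all sites of both untransfected lists, at 31.1% (30.7 to 31.5%). Sites that the H2A.Z siRNA list alone also held had 40% (38.4 to 41.6%), and those that the NT siRNA list alone also held 15% (12.5 to 17.9%). In the lowest quartile of null fold, members had 22.3% (20.6 to 24.1%) against 25.9% (25.2 to 26.7%) in the others, with 34.7% in sites of the H2A.Z siRNA list alone and 12.5% (9.69 to 15.9%) in those of the NT siRNA list alone. Within all 5 classes of GC content the members' share was the lower, for example 26.1% (23 to 29.4%) against 34.2% (32.1 to 36.4%) in the lowest. SP1 letters stood at 5.86% of members and 14.6% of all sites, and in the lowest quartile of null fold at 5.97% (5.05 to 7.05%) against 8.18% (7.74 to 8.63%) in the others. In that quartile H2A.Z siRNA alone had 3.8% (3.07 to 4.69%) and NT siRNA alone 4.85% (3.19 to 7.3%). From the lowest to the highest GC class of these weak sites, members had 3.14%, 6.6%, 5.25%, 9.29% and 12.1% and the others 1.62%, 4.01%, 5.42%, 8.01% and 15.1%, so that members were higher in 3 of 5.

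In the lowest quartile of null fold, members had more TEAD letters, 21.5% (19.8 to 23.2%) against 18.6% (17.9 to 19.2%), and more RUNX letters, 21.2% (19.5 to 23%) against 18.6% (18 to 19.2%). Members had fewer CTCF cores, 2.45% (1.88 to 3.19%) against 4.48% (4.15 to 4.83%), and fewer CAGCTG, 11.9% against 15%. Sites of a single siRNA list differed from the other sites in the same direction as the members in these sets. For H2A.Z siRNA alone, TEAD and RUNX letters each stood at 20.8%, CTCF cores at 1.48% and CAGCTG at 12.4%. For NT siRNA alone, TEAD and RUNX letters each stood at 22.9%, CTCF cores at 2.31% and CAGCTG at 9.47%. For TEAD, RUNX and the CTCF core the order changed between GC classes. NF-Y letters stood at 24.8% against 22.6% and SOX letters at 17% against 15.1%. Shares were close for the general E-box (67.5 and 67.6%), steroid receptor (6.62 and 6.6%), STAT (5.88 and 6.06%), NFI (13.2 and 14.5%), C/EBP (10.1 and 8.91%) and the nuclear receptor (12.9 and 13.9%), and for the rarer homeobox (4.17 and 3.61%), forkhead (2.96 and 2.84%), CArG (1.44 and 1.18%), ETS (1.16 and 1.39%) and CRE (0.324 and 0.393%) letters. Windows mostly made of masked repeats were 7.13% of members (6.12 to 8.29%) and 3.95% of the others, while sites of H2A.Z siRNA alone had 7.65% (6.6 to 8.84%) and those of NT siRNA alone 3.93% (2.46 to 6.2%).

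**Figure D5:**
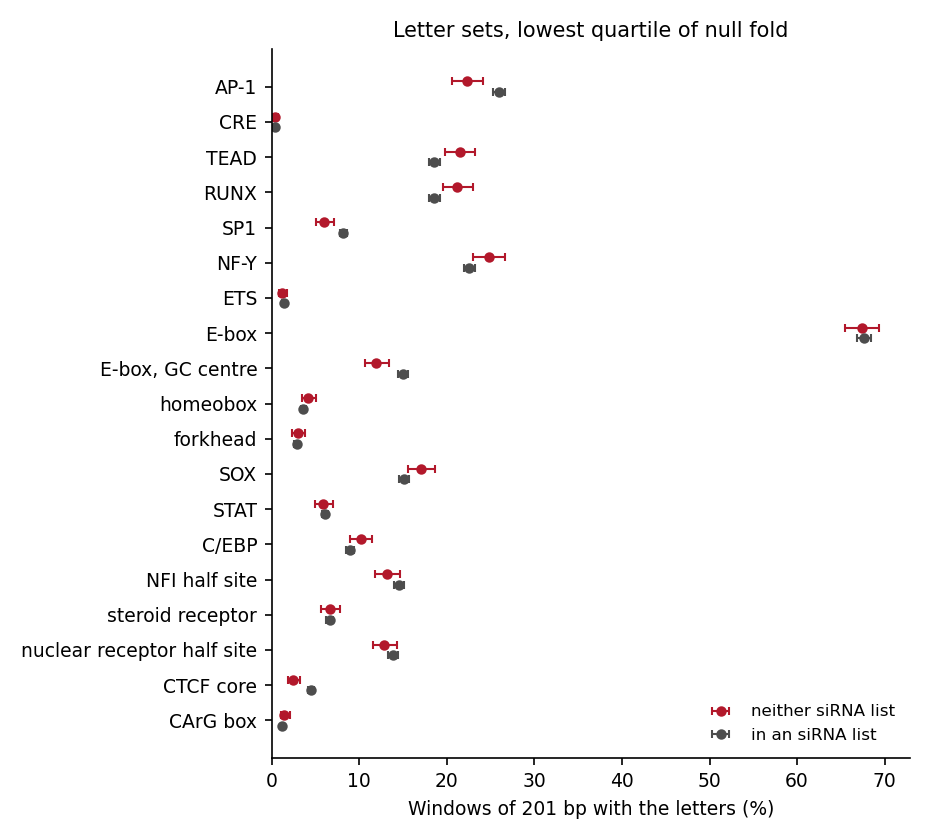
Percentage of windows reaching 100 bp to either side of the null summit (horizontal) that hold each set of letters (vertical) at weak sites, meaning the lowest quartile of null fold, for the 2161 members (red) and the 14495 sites that an siRNA list also held (grey). Points are shares and lines 95% Wilson intervals, and AP-1, SP1 and the CTCF core lie lower and TEAD and RUNX higher in members.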

How the data were processed

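ATAC-Seq had been carried out on primary MEFs. Per the study's methods, reads were aligned to mm10 with Bowtie2, PCR duplicates removed with Picard and peaks called with MACS2 in paired-end mode. The labels name 1 list per group, and the methods state merging of replicates for signal tracks without stating it for the peak lists. MACS2 then piles up whole fragments, so a shift for the Tn5 cut would move peak edges by a few bases only. In the deposited lists the fold is the authors' ratio of summit pileup to local background, and the p-value and q-value were deposited as −log10 values in adjacent columns, the q-value being read as the column after the p-value. Summit positions were deposited as offsets from the peak start. No per-library values were analysed here.

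Pileups were recovered from the fold and −log10 p under the Poisson model, within 0.05 of a whole number for at least 99.995% of peaks of each list, and the step was tested on simulated data. Sites were merged with bedtools 2.31.1. A site was represented by its strongest peak in each list. Annotation was GENCODE M21 on GRCm38.p6, with a promoter of 1 kb on either side of a TSS. Shares have Wilson intervals, and medians have order-statistic intervals, both at 95%. Named members followed a rule based on the lower of their WT and null percentiles: the first 10, the first 12 at protein-coding promoters, the first 6 distal, the 5 genes with most members, listed genes with a member at their start, and the 3 highest and 3 lowest null over WT ratios above the median rank. Members and the 16 gene lists were chosen with earlier results of these data known, and the 6 distal members away from absent numbers were added. Some genes that the rule names are not reported here. GC content and letters were computed on chromosomes 1 to 19. Scripts used Python 3.11.15, NumPy 2.4.6, SciPy 1.17.1, pandas 2.3.3 and matplotlib 3.10.9.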

Additional observations from a re-analysis of the deposited data

How the results depend on the processing

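Across 122 values recomputed under alternative settings, 65 stayed within the interval of the reported value (for the number of members, within 1.5 times it), 55 left it and 2 turned in direction; the causes were not tested. No paired analysis was possible because the libraries of a group share 1 peak list, and no replicate could be left out. With a −log10 q of 5 or more, there were 1565 members, 2.83% of sites, 16.5% of them at promoters, at a median percentile of 31.0 in WT and 21.4 in null, with 100% expected above the NT siRNA threshold, AP-1 letters in 26.8% and a width of 376 bp. With the 80433 strongest peaks of each list, there were 4890 members, 7.63% of sites, 17.1% at promoters, at percentiles of 28.1 and 19.4, with a log2 ratio of 0.27 and a width of 365 bp. With the top 20000 peaks, members were 13.8% of sites, 39.4% at promoters, at a null percentile of 21.2, with a log2 ratio of 0.63, 100% expected, GC of 50.2%, AP-1 in 31.5%, SP1 in 20.8% and a width of 951 bp. Scaled to the shallowest list, percentiles were 29.2 and 23.9, the log2 ratio 0.14 and the width 350 bp. There 100% were expected by construction, since the scaling kept only peaks passing the same threshold. In every setting that threshold was the lowest score of the whole NT siRNA list, also where the list was cut to stronger peaks. With chromosomes X and Y the null percentile was 21.4. With a reciprocal overlap of 50% there were 4293 members, 7.12% of sites, 22.6% at promoters, at a null percentile of 26.2, with a log2 ratio of 0.31, 98.1% expected, GC of 48.3%, SP1 in 9.39% and a width of 369 bp. Promoters of 500 bp held 11.6% and protein-coding ones 9.31%. Ranked by −log10 p, percentiles were 31.5 in WT and 19.1 in null. In windows reaching 200 bp to either side, GC was 45.4%, with AP-1 in 30.9% and SP1 in 9.1%. The log2 ratio turned to −0.41 with the median of all sites at 0 and to −0.65 with that of the strongest 1000 at 0.

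The alternatives for isolation and GC content were chosen after seeing the data. The share of members among weak isolated sites was 49.8% under the stricter q threshold and 71.2% with equal numbers of peaks. Among those with 10 or more neighbours it was 2.61% and 17.8%, or 4.13% when only sites called in all 4 lists counted as neighbours. In the lowest and highest classes of GC it was 20.6% and 1.44% at that threshold, and 40.5% and 12.7% with equal numbers. Depth was lowest in the NT siRNA list, with a background of 3.88 fragments, and with all lists scaled to it there were 2710 members, 4.40% of sites.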
